A study of Macaca mulatta with 8 samples.

Results

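Genes of autophagy and of the vacuolar ATPase were followed in rhesus macaque granulosa cells, the somatic cells of the ovarian follicle, collected after and before an ovulatory stimulus. They were taken by symbol: names that begin with ATG and a number, ATP6V, ATP6AP, LAMP and a number, GABARAP, WIPI or MAP1LC3, where GEO's platform annotation gives a probe set that symbol alone. This rule, which uses no measured value, gave 37 genes with 63 probe sets, of 14132 genes and 52707 probe sets on the array. The rule was, however, chosen with earlier results of these data known. The brightest probe set of a gene, by its mean over the 8 arrays, stands for that gene. Another 2 probe sets, shared in the annotation between ATG4A or MAP1LC3C and an unrelated or unnamed locus, were not used. Several genes with such names are not among the 37, as no probe set carries their symbol alone. They include ATP6V1A, ATP6V1B2, ATP6V1C1, ATP6V1G1, ATP6V0A1, ATP6V0C, ATP6V0D1 and ATP6AP2 of the pump, and ATG12, ATG14, WIPI1, LAMP1 and MAP1LC3A.

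The groups are granulosa cells of follicles matured in vivo under FSH plus hCG (labelled VVM-GC, 4 arrays) and granulosa cells collected under FSH stimulation alone (labelled PM-GC, 4 arrays). FSH, follicle-stimulating hormone, was thus given in both, and hCG, human chorionic gonadotropin, which acts on the receptor of luteinizing hormone, in the VVM-GC group alone. The series design calls both mural granulosa cells, whereas the sample labels refer to cumulus-oocyte complexes; the strain and age of the animals, the time after hCG and the animal behind each array are not stated in the labels. The spread behind the p-values is that among these arrays, and part of it may be technical.

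Macroautophagy wraps cytoplasm in a growing double membrane, the phagophore, which closes into an autophagosome and fuses with a lysosome. A kinase complex starts the process, lipid-transfer and phosphoinositide-binding proteins let the membrane grow, and ubiquitin-like conjugation systems attach ATG8 proteins (the LC3 and GABARAP groups) to it. The vacuolar ATPase, a rotary proton pump with a cytosolic V1 part that hydrolyses ATP and a membrane V0 part that carries protons, acidifies lysosomes, endosomes and secretory vesicles. In the follicle, autophagy has been studied chiefly in granulosa cell death and in the change of these cells into luteal cells.

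Of 14132 genes, 23.8% passed an adjusted p of 0.05 in limma with Benjamini-Hochberg adjustment over all genes, 11.3% higher and 12.5% lower after hCG. Of the 37 autophagy and vacuolar ATPase genes, 6 (16.2%) passed, 4 of them higher (10.8%) and 2 lower (5.41%). These shares are at or below those of all genes. The median log2 difference, after hCG minus before hCG, was -0.06 over the 37 genes and -0.09 over all genes. Among the 37, 2 genes differed at least 2-fold, ATP6V1H and ATG4A. The other 35 lay between -0.73 and 0.56 on the log2 scale.

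**Figure D1:**
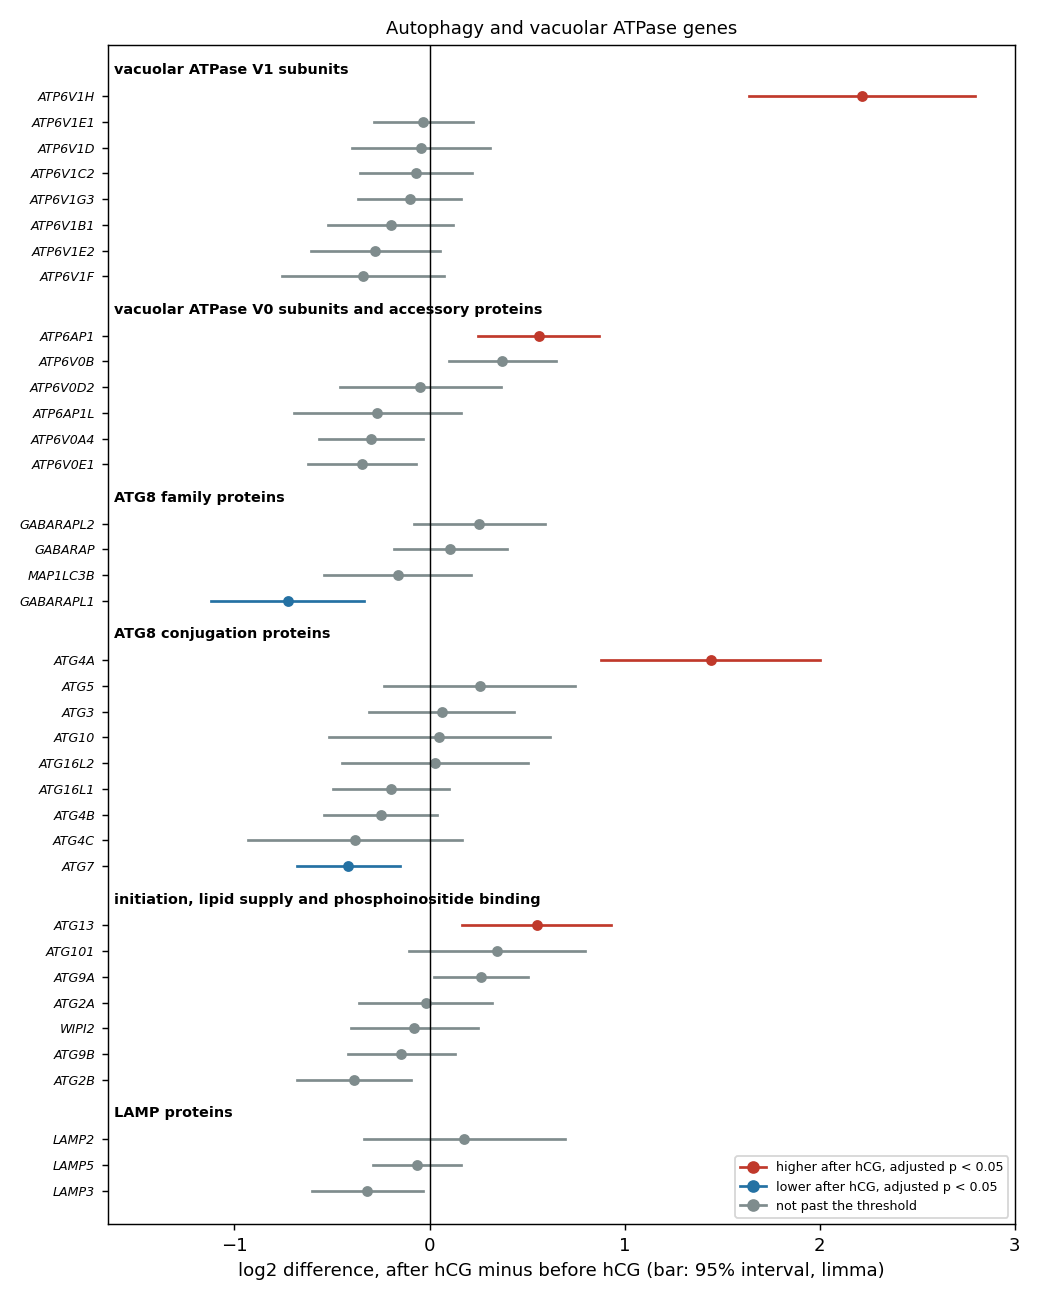
Log2 difference in signal, after hCG minus before hCG, for the 37 genes by role; points are limma estimates from 4 against 4 arrays, bars their 95% intervals, and colour the call at an adjusted p of 0.05. ATP6V1H at 2.22 and ATG4A at 1.44 stand to the right, while most other points lie close to 0.

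The strongest difference among these genes was in the V1 part of the proton pump. ATP6V1H encodes subunit H, which regulates the pump by linking ATP hydrolysis in V1 to proton transport through V0. Its log2 intensity was 12.19, 11.02, 10.91 and 11.61 on the arrays after hCG, against 9.16, 9.43, 9.10 and 9.17 before hCG. Every array after hCG lay above every array before hCG, and arrays 1 and 4 after hCG read highest. ATP6V1H rose 4.65-fold (log2 difference 2.22, SE 0.26, 95% interval 1.64 to 2.80, limma adjusted p = 0.00026). Its other probe set also rose, with 10.88 ± 0.49 after and 9.17 ± 0.34 before hCG (SD, n = 4 each, log2 difference 1.71). The names of both probe sets share the same number, so their readings may not be independent.

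The other 7 measured V1 genes did not pass, and the V1 part was covered only in part. ATP6V1E1, a subunit of the peripheral stalks that hold V1 against V0, read 11.71 ± 0.05 after and 11.74 ± 0.17 before hCG (SD, n = 4 each), with a difference of -0.03 (95% interval -0.29 to 0.22). ATP6V1D, part of the central rotor stalk, differed by -0.04 (95% interval -0.40 to 0.31). ATP6V1F, another central stalk subunit, differed by -0.34 (95% interval -0.75 to 0.08). The intervals of these 3 subunits all lie below that of ATP6V1H. The difference between their changes and that of ATP6V1H was not tested.

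Several V1 and V0 positions have isoforms known mainly from organs other than the ovary. They are ATP6V1B1, ATP6V1C2, ATP6V1G3 and ATP6V0A4, best known from the kidney, ATP6V0D2 from osteoclasts, and ATP6V1E2 from testis. These 6 genes read 3.09 to 4.59 after hCG and 3.25 to 4.96 before hCG on every array, under the median probe set of the arrays (log2 5.45 to 5.54). Their differences ran between -0.30 and -0.05, and none passed. The files hold no detection calls, so these genes cannot be called absent. ATP6V0A4 did not overlap between the groups, at 3.90 to 4.06 after and 4.08 to 4.47 before hCG (adjusted p = 0.103, limma).

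In the V0 part and among accessory proteins, likewise covered only in part, 1 of 6 measured genes rose and none fell. ATP6AP1 encodes Ac45, an accessory membrane protein that helps the pump assemble and reach its compartments. It read 11.04, 11.34, 11.17 and 10.93 after hCG, against 10.54, 10.83, 10.49 and 10.38 before hCG. The groups did not overlap, and ATP6AP1 rose 1.47-fold (log2 difference 0.56, SE 0.14, limma adjusted p = 0.0158). Repeated quantile normalization ended that call (log2 difference 0.42, limma adjusted p = 0.079, in a range of 0.00999 to 0.079 over the alternatives).

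The membrane subunits ATP6V0B and ATP6V0E1 lay on opposite sides of 0 and near the threshold. ATP6V0B, a proteolipid of the rotating ring, read 11.61, 11.69, 11.59 and 11.34 after hCG, against 11.06, 11.22, 11.09 and 11.37 before hCG. Array 4 of each group kept the groups from separating (log2 difference 0.37, limma adjusted p = 0.0521), and a second, dimmer probe set of ATP6V0B differed by -0.36. ATP6V0E1, the small subunit e, read 12.56, 12.32, 12.79 and 12.69 after hCG, against 12.96, 12.88, 12.89 and 13.02 before hCG. All 4 arrays after hCG were below all 4 before hCG, with a difference of -0.35 (adjusted p = 0.0727), and its second-brightest probe set fell by 0.48 (adjusted p over all probe sets = 0.0187).

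The ATG8 family is the coat of ubiquitin-like proteins on the autophagosome membrane, and 1 of its 4 measured genes fell. GABARAPL1 read 8.99, 9.02, 9.53 and 9.16 after hCG, against 9.80, 9.65, 10.31 and 9.85 before hCG. The groups did not overlap, with array 3 highest in each, and GABARAPL1 was 1.66-fold lower after hCG (log2 difference -0.73, SE 0.17, limma adjusted p = 0.0136). It passed in all 17 alternative settings.

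The other three ATG8 genes did not pass. GABARAP, whose product also binds the GABA-A receptor, read 12.31 ± 0.12 after and 12.21 ± 0.19 before hCG (SD, n = 4 each), and its difference of 0.11 has a 95% interval of -0.18 to 0.39. GABARAPL2, also known as GATE-16, differed by 0.25 (95% interval -0.08 to 0.59) and by 0.21 on its second probe set. MAP1LC3B, the LC3 protein most used as a marker of autophagosomes, differed by -0.16 (95% interval -0.54 to 0.21), and its 3 probe sets ran from -0.22 to -0.05.

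**Figure D2:**
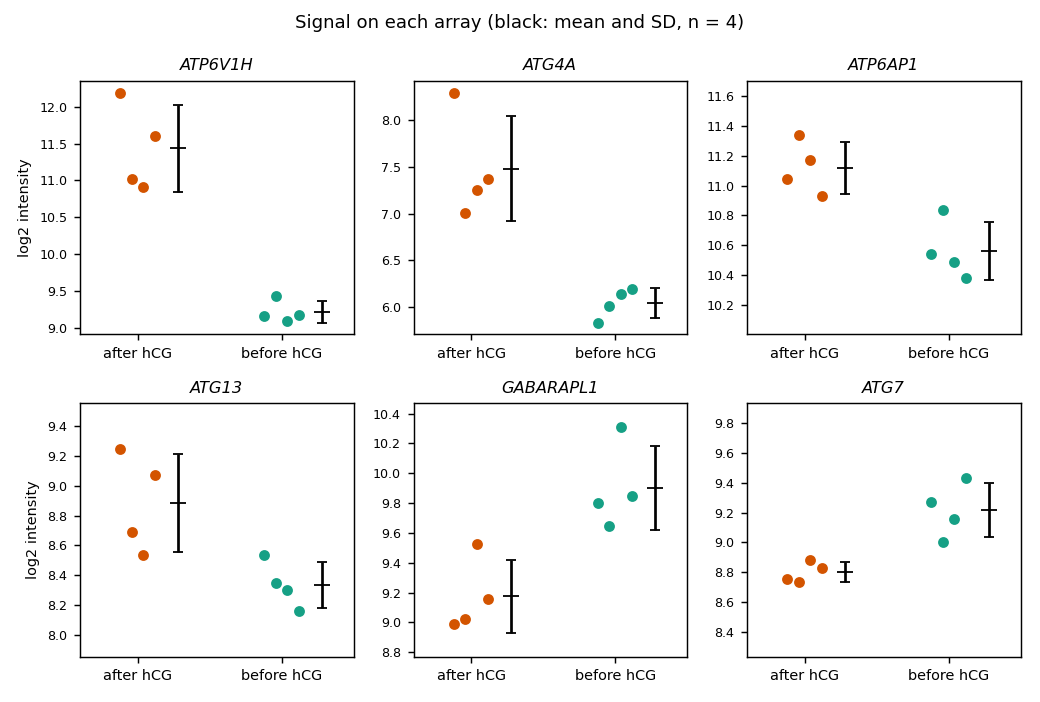
Log2 intensity on each array for the 6 genes past the threshold, with arrays after hCG on the left and before hCG on the right of each panel; black bars are mean and SD (n = 4). The groups separate in every panel except that of ATG13, where the lowest array after hCG (8.53) touches the highest before hCG (8.53).

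ATG4 proteases cut ATG8 proteins so that they can be joined to lipid, and later release them from the membrane. ATG4A, which in human cells acts mostly on the GABARAP group, read 8.30, 7.002, 7.26 and 7.37 after hCG, against 5.83, 6.01, 6.14 and 6.20 before hCG. The groups were far apart, with array 1 after hCG the highest. ATG4A rose 2.71-fold (log2 difference 1.44, SE 0.25, limma adjusted p = 0.00258), and by 1.17 without array 1 after hCG. ATG4B, the most active protease of the family, read 8.29 ± 0.11 after and 8.55 ± 0.21 before hCG (difference -0.25, adjusted p = 0.195). ATG4C differed by -0.38 (95% interval -0.93 to 0.17), with array 3 high in both groups.

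Within families, the ratio of 2 genes on the same array describes how their changes differed; the pairs were taken beside genes past the threshold, so no test is given. The log2 ratio of ATG4A to ATG4B was -0.81 ± 0.57 after and -2.50 ± 0.18 before hCG (SD, n = 4 each). That of ATG4A to ATG4C was 0.58 ± 0.79 after and -1.24 ± 0.34 before hCG. GABARAPL1 to GABARAPL2 stood at -2.10 ± 0.13 after and -1.11 ± 0.19 before hCG, and GABARAPL1 to MAP1LC3B at 0.13 ± 0.31 after and 0.69 ± 0.52 before hCG. ATP6AP1 to its paralogue ATP6AP1L stood at 3.98 ± 0.34 after and 3.16 ± 0.33 before hCG. These values carry the affinities of different probes, so only the difference between the groups can be read.

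**Figure D3:**
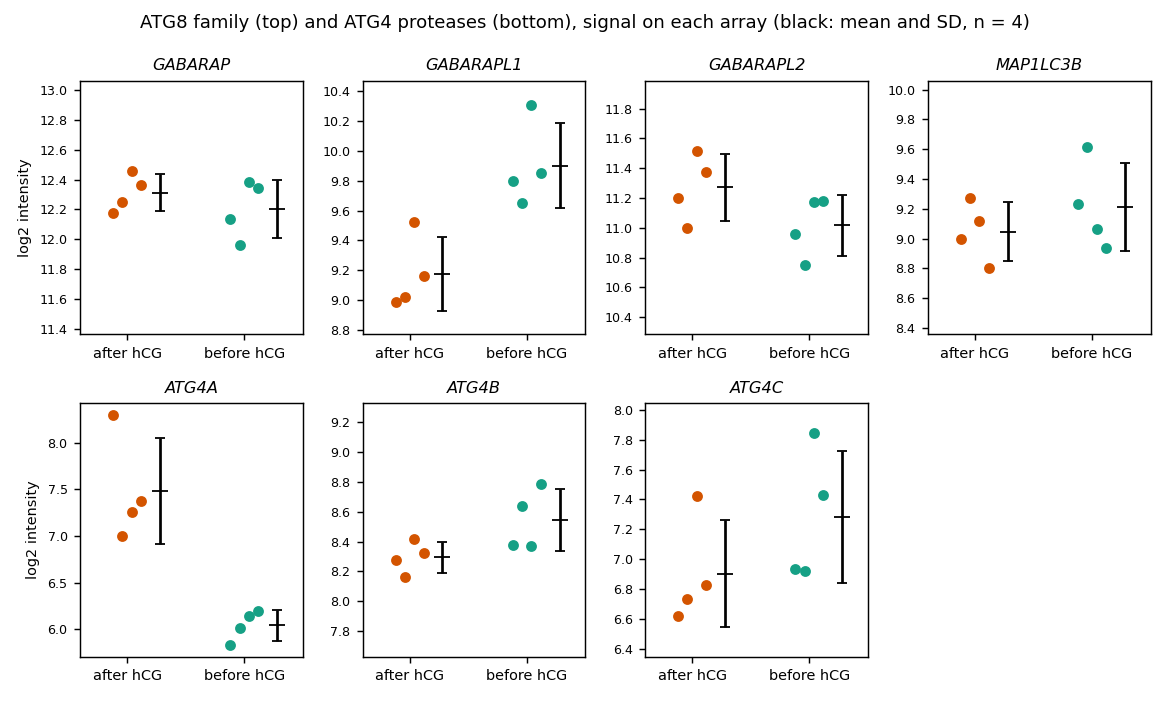
Log2 intensity on each array for the 4 ATG8 genes (top) and the 3 ATG4 genes (bottom), after hCG on the left and before hCG on the right; black bars are mean and SD (n = 4), and each panel has its own axis range. Separated groups appear for GABARAPL1 and ATG4A and overlapping ones for the other five genes.

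The enzymes that attach ATG8 to lipid showed 1 gene lower and no other change past the threshold. ATG7, the activating enzyme at the head of both ubiquitin-like systems, read 8.75, 8.74, 8.88 and 8.83 after hCG, against 9.27, 9.004, 9.16 and 9.43 before hCG. The groups did not overlap, and the arrays after hCG were tightly spaced (SD 0.07, against 0.18 before hCG). ATG7 was 1.33-fold lower after hCG (log2 difference -0.42, SE 0.12, limma adjusted p = 0.0301). In the fit over all probe sets, each of its 3 probe sets fell, by 0.42 to 0.92. Among the 15 alternative settings that use the brightest probe set, its call held in 7, with adjusted p up to 0.0769.

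The conjugating enzymes downstream of ATG7 did not pass. ATG3, which hands ATG8 to lipid, read 10.10 ± 0.27 after and 10.04 ± 0.23 before hCG (SD, n = 4 each, 95% interval of the difference -0.31 to 0.43). ATG10, which joins ATG12 to ATG5, differed by 0.05 (95% interval -0.52 to 0.62). ATG5 differed by 0.26, and its 3 probe sets ran from 0.16 to 0.28. ATG16L1, which brings the ATG12-ATG5 conjugate to the membrane, differed by -0.20, and its paralogue ATG16L2 by 0.03. For ATG16L2, array 1 after hCG read 7.79 and the other arrays of both groups 6.82 to 7.23.

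At initiation, ATG13 and ATG101 encode partners of the ULK kinases, which start autophagy when nutrient signals fall. ATG13 read 9.25, 8.69, 8.53 and 9.07 after hCG, against 8.53, 8.35, 8.30 and 8.16 before hCG. Arrays 1 and 4 after hCG were the highest, and array 3 after hCG met array 1 before hCG. ATG13 rose 1.46-fold (log2 difference 0.55, SE 0.17, limma adjusted p = 0.0433), but on this probe set it passed in 5 of 15 alternative settings, and in 2 of the 8 that left out an array. Its 4 probe sets ran from -0.14 to 1.03, of which 1 passed over all probe sets. ATG101 read 10.43 on array 1 after hCG and 9.57 to 9.77 on the other three, against 9.21 to 9.71 before hCG (difference 0.35, adjusted p = 0.257).

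Lipid supply and phosphoinositide binding showed no gene past the threshold. ATG2B, a lipid-transfer protein that bridges the endoplasmic reticulum and the phagophore, read 7.34, 7.05, 7.20 and 7.04 after hCG, against 7.65, 7.63, 7.64 and 7.26 before hCG. Array 4 before hCG lay beneath array 1 after hCG, and the difference was -0.39 (limma adjusted p = 0.059, and 0.0231 without array 4 before hCG, in a range of 0.0231 to 0.139 over the alternatives). Its paralogue ATG2A differed by -0.02 (95% interval -0.36 to 0.32). ATG9A, the lipid scramblase of the vesicles that seed the phagophore, was higher on all 4 arrays after hCG (8.77 to 8.91) than on any before hCG (8.36 to 8.66), with a difference of 0.26 and an adjusted p of 0.109. ATG9B differed by -0.14. WIPI2, which binds the phosphoinositide of the phagophore and recruits ATG16L1, read 9.48 ± 0.20 after and 9.56 ± 0.21 before hCG, and its 4 probe sets ran from -0.18 to 0.11.

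LAMP proteins are glycoproteins of the lysosome membrane, and none of the 3 measured passed. LAMP2, needed for fusion of autophagosomes with lysosomes, read 8.38, 8.77, 7.60 and 7.96 after hCG, against 7.998, 7.86, 8.23 and 7.91 before hCG. Its spread after hCG (SD 0.51) exceeded that before hCG (SD 0.16), and the difference was 0.18 (95% interval -0.34 to 0.70). LAMP3, known from dendritic cells and lung, read 4.73 to 4.83 after and 4.85 to 5.38 before hCG, a low signal with groups that did not overlap (difference -0.32, limma adjusted p = 0.101). LAMP5, known from brain, differed by -0.06.

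Groups did not overlap for 9 of the 37 genes (24.3%), 4 with the arrays after hCG above and 5 with them below. Over all genes this share was 27.2%, 11.8% above and 15.4% below. The spread between arrays of a group was like that of all genes, with a median SD of 0.21 after hCG and 0.20 before hCG for the 37 genes, against 0.21 after and 0.19 before hCG for all genes. The deviation of each array from a gene's mean had medians over the 37 genes between -0.10 and 0.05, and array 4 after hCG was the lowest.

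Of the 37 genes, 17 have several probe sets. In 10 of them all probe sets moved to the same side of 0, and in 7 they did not. In ATG3, ATG10, ATG16L1 and ATP6V0E1, the only probe set opposite to the brightest read under the median probe set of the arrays. In a fit over all 52707 probe sets, 14.1% passed, 7.25% higher and 6.86% lower after hCG. Of the 63 probe sets here, 10 passed (15.9%), 5 higher and 5 lower. Both probe sets of ATP6V1H and all 3 of ATG7 were among them, whereas for ATG13 and ATP6V0E1 only a dimmer probe set passed. ATG4A, ATP6AP1 and GABARAPL1 have 1 probe set each here, so their calls could not be compared with a second one.

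**Figure D4:**
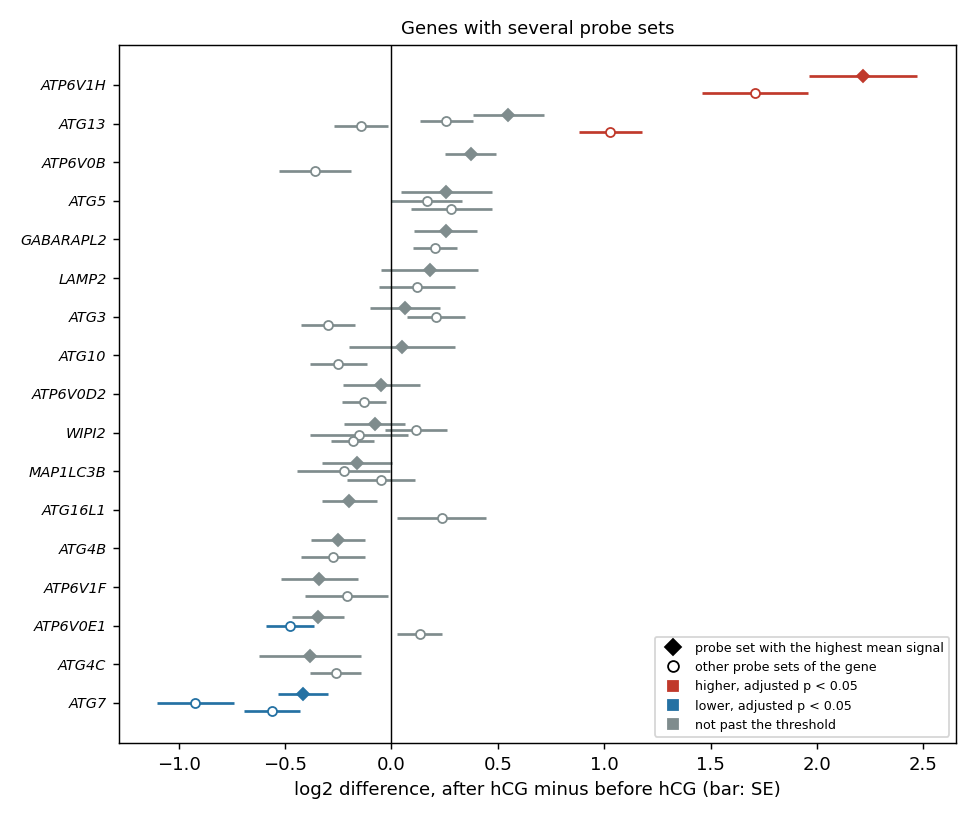
Log2 difference, after hCG minus before hCG, for every probe set of the 17 genes that have several; diamonds mark the brightest probe set, open circles the others, bars the SE, and colour the call over all probe sets. Both probe sets of ATP6V1H lie above 1.5 and the 3 of ATG7 lie below 0, while those of ATG13, ATP6V0B and ATP6V0E1 fall on both sides.

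Neighbouring genes of the pathway, in 7 lists of 136 genes outside the symbol rule, could be measured for 98. Of these 15 rose, 12 fell and 71 did not pass, so 27.6% passed beside 23.8% of all genes. By list, all 4 calls in initiation and nucleation (of 12 genes) and all 3 in autophagosome-lysosome fusion (of 7) were higher, while all 3 in vacuolar ATPase assembly and regulation (of 10) and both among transcription factors (of 6) were lower. Over all genes, 11.3% passed higher and 12.5% lower after hCG. The lists are small, were chosen with earlier results of these data known, and were not tested.

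In initiation and nucleation, VMP1, a membrane protein of the endoplasmic reticulum needed to form autophagosomes, read 12.53 ± 0.25 after and 11.04 ± 0.33 before hCG (SD, n = 4 each) and rose 2.81-fold. All 3 of its probe sets were higher. WDR45, the WIPI4 protein that works with ATG2, rose 2.28-fold. The kinase ULK2 rose by 0.88 (SE 0.17). Its paralogue ULK1, the fourth call in this list, rose by 0.69 and lost the call in 4 of 17 settings, each without an array (limma adjusted p up to 0.0737). For fusion, the SNARE protein VAMP8 read 10.13 ± 0.26 after and 8.57 ± 0.43 before hCG and rose 2.95-fold, the GTPase RAB7A rose 1.77-fold, and the SNARE protein YKT6 rose by 0.61 (SE 0.13). Among 7 selective autophagy receptors, RETREG1, a receptor for the endoplasmic reticulum, fell by 0.46 and kept the call in 7 of 17 settings, while SQSTM1 (p62) differed by 0.25 (limma adjusted p = 0.134).

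Among 28 nutrient-sensing genes, 3 rose, 3 fell and 22 did not pass (median 0.06). Of the genes that restrain mTOR signalling, DDIT4 and DEPTOR rose, by about 2 on the log2 scale. Others of this kind, AKT1S1, TSC1, TSC2, DEPDC5, NPRL2, NPRL3, SESN1 and SESN3, did not pass (log2 differences -0.26 to 0.44). DDIT4, which restrains mTORC1 through the TSC complex, read 10.65 ± 0.66 after and 8.61 ± 0.44 before hCG (SD, n = 4 each) and rose 4.12-fold. DEPTOR, which binds mTOR itself, rose 3.86-fold. RRAGB, a Rag GTPase, fell by 0.90, the lysosomal arginine sensor SLC38A9 fell by 0.89, and RPTOR, the scaffold of mTORC1, fell by 0.60. LAMTOR4, of the Ragulator complex, rose by 0.65 on its brighter probe set and differed by -0.32 on the other.

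Among the transcription factors, MITF, a relative of TFEB that binds promoters of lysosomal genes, fell by 1.75 on its brighter probe set (8.51 ± 0.48 after and 10.26 ± 0.15 before hCG). Its other probe set differed by 1.22 the opposite way, and the average of both did not pass (adjusted p = 0.423). ZKSCAN3, a repressor of autophagy genes, fell by 0.93 (SE 0.19) on its 1 probe set. The signal was low, at 5.12 after hCG, under the median probe set of the arrays, and 6.05 before hCG. TFEB differed by -0.15 and TFE3 by 0.28, with limma adjusted p = 0.425 and 0.283. For assembly and regulation of the pump, OXR1, whose TLDc domain is known to act on the vacuolar ATPase, fell by 0.77 (SE 0.13) with all 4 probe sets lower, and ROGDI, of the complex that rejoins V1 and V0, fell by 0.70 (SE 0.13). VMA21, an assembly factor of V0, fell by 0.50 and kept the call in 4 of 17 settings. ROGDI and VMA21 have 2 probe sets each, and the means over these were smaller, at -0.40 for ROGDI and -0.30 for VMA21.

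Of 28 lysosomal enzymes and membrane proteins, 5 rose, 3 fell and 20 did not pass (median 0.05). The 5 include NEU1, a sialidase, which turned to -0.30 with its probe sets averaged and to -2.62 on its most variable probe set. NPC1, which exports cholesterol from lysosomes, was 3.28-fold higher (SE 0.17 on the log2 scale). CD63, a tetraspanin of late endosomes, read 13.21 ± 0.14 after and 11.83 ± 0.18 before hCG (SD, n = 4 each) and rose 2.59-fold. IDS, which degrades heparan and dermatan sulfate, rose by 1.30 on its brightest probe set, with its 7 probe sets between -0.09 and 1.30. TPP1, a peptidase, was lower by 1.34 on its brightest probe set, with its 4 probe sets between -1.34 and 0.31; their average just missed the threshold (limma adjusted p = 0.0515). ASAH1, the acid ceramidase, fell by 0.77 with all 5 probe sets lower, and MANBA, a mannosidase, fell by 0.57 and kept the call in 11 of 17 settings.

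**Figure D5:**
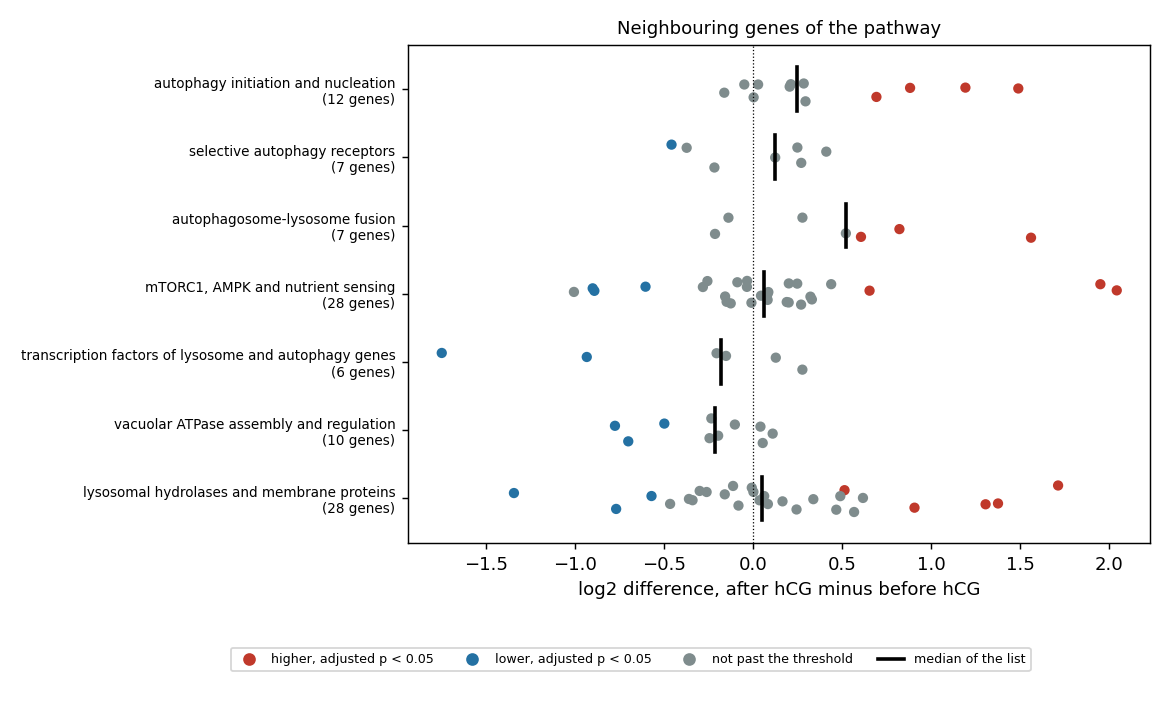
Log2 difference, after hCG minus before hCG, for the 98 measured genes of the 7 neighbouring lists; each point is a gene coloured by its call, and the black line is the median of the list. Medians run from -0.21 for vacuolar ATPase assembly to 0.52 for fusion.

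Marker genes were read for the cells that the samples could hold. SERPINE2 and INHA, abundant in granulosa cells, read 14.48 and 13.50 after hCG, against 14.55 and 14.07 before hCG, and of 10 granulosa markers 8 fell. All 8 ovulatory response genes rose. Of 12 leukocyte markers 1 fell, CSF1R (log2 difference -2.09, limma adjusted p = 0.000152). CD68 lay on the other side of 0 without passing (0.84, limma adjusted p = 0.0502). The summed signal of the 12 markers ran from 10.62 to 11.85 after and from 11.38 to 12.20 before hCG on the log2 scale. MRC1, the brightest of them, weighs most in this sum (10.68 ± 0.52 after and 10.84 ± 0.72 before hCG). It differed by -0.16 on the probe set used, but by 0.54 as the mean of its 3 probe sets. Of 4 erythrocyte markers 2 fell, with sums of 8.46 to 10.56 after and 10.72 to 11.19 before hCG. Of 9 endothelial and 7 oocyte markers none passed, and of 6 theca and stroma markers 1 fell; their sums overlapped between the groups. The part of leukocytes and erythrocytes in the lower genes above was not tested. In bulk samples like these, fewer cells of a type and less RNA per cell cannot be told apart.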

How the data were processed

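Total RNA (50 ng) was amplified linearly in 2 rounds and labelled with biotin, per the labels' protocols, and hybridised to 1 Affymetrix rhesus macaque array per sample. The deposited values are intensities that the authors made with Affymetrix Expression Console and RMA (robust multi-array average), per the submitters' processing notes; no versions of these are stated. They are on a linear scale (array medians 43.6 to 46.6), so log2 was taken and nothing else changed. Of 52865 rows, 158 array controls were left out. GEO's platform annotation gave 24956 probe sets 1 gene symbol, 361 several and 27390 none. For 24616 the gene ID was in a reference gene list, whose current symbol was then used.

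Groups were compared with limma 3.58.1 (lmFit, eBayes) in R 4.3.3 over 14132 genes, 1 probe set each, with Benjamini-Hochberg adjustment over all of them. A check on simulated data required only that planted differences be estimated at their mean size, so it does not bear on the calls. Signals of different probe sets are not comparable as transcript levels and precision is limited by how many arrays there are. Genes past the threshold are named with their values, with their paralogues; up to 3 genes per neighbouring list and direction are named. The members and lists were chosen with earlier results of these data known. Chosen after values were seen were the names SQSTM1, TFEB, TFE3, ULK1, NEU1 and CD68 and the paralogue ratios. So were the genes that restrain mTOR signalling and did not pass. Samples with the same replicate number deviated together in no regular way (correlations -0.01 to 0.15, against -0.20 to 0.16 for other numbers), so the numbers were not taken as pairs.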

Additional observations from a re-analysis of the deposited data

Results flagged for a closer look

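Each of the 37 genes was tested in each group of 4 arrays for an array far from the other three (Dixon's test), 74 groups in all, and 4 readings on 3 arrays stood apart; chance flags about 1 group in 20. On array 4 before hCG, ATG2B read 7.26, with the others at 7.63 to 7.65, and ATP6V1E1 read 11.99, with the others at 11.66. On array 1 before hCG, ATP6V1D read 8.60, with the others at 8.09 to 8.14. On array 2 after hCG, ATG9B read 5.52, with the others at 5.25 to 5.27.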

How the results depend on the processing

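A total of 17 alternative settings were tried, 9 of processing and 8 that each left out an array. ATP6V1H (log2 difference 1.96 to 2.39), ATG4A (1.12 to 1.60) and GABARAPL1 (-0.86 to -0.59) passed in all 17, and 26 of the 31 genes not past the threshold passed in none. ATP6AP1 was lost with repeated quantile normalization, ATG13 in 10 settings and ATG7 in 8; the cause was not tested. ATG2B passed in 5 settings, ATP6V0B and ATP6V0E1 in 4 each, and ATG9A and ATP6V1E2 in 1 each. Among the 37 genes, 2 were higher with repeated quantile normalization. Lower genes numbered 4 with 32 added to every intensity, 4 with repeated quantile normalization and 1 with a trended, robust eBayes. With the replicate number as a block, 1 gene was lower, ATG7 being lost (adjusted p = 0.0522). In that setting the limma adjusted p of GABARAPL1 was 0.00545, against 0.0136 in the main fit. That of ATG4C was 0.0691, against 0.299. Leaving out an array gave 3 to 4 higher and 1 to 3 lower genes, and medians of -0.1145 to -0.0596. The median was 0.0036 over the 28 genes kept when low signals were left out, since the 9 dropped genes all lay below 0. A fit over all probe sets called 7439 of them, being a larger table. NEU1, a lysosomal sialidase among the 5 counted higher, reversed to -0.30 with probe sets averaged and to -2.62 with the most variable probe set.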
